A study of Sus scrofa with 2 samples.

Results

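Deubiquitinating enzymes were compared between brain and liver of the pig (Sus scrofa), breed Rongchang, in which RNA sequencing covered 1 library per tissue. Rows of the deposited count table were taken where the product name held "ubiquitin carboxyl-terminal hydrolase", "ubiquitin thioesterase" or "OTU domain-containing protein". This gave 38 rows with 38 names, of 21653 names in all. The labels name no treatment, genotype, age, sex or brain region, nor whether 1 animal gave both tissues.

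Deubiquitinating enzymes remove ubiquitin, a small protein that marks other proteins for breakdown by the proteasome or alters their traffic and signalling. Most are cysteine proteases, in families named for their catalytic domains, such as the ubiquitin-specific proteases (USP), the ubiquitin C-terminal hydrolases (UCH) and the ovarian tumour proteases (OTU). In neurons they are known for supplying free ubiquitin and for adjusting receptors at synapses, and in liver for acting on regulators of metabolism and inflammation.

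Of the 38 rows, 31 named a USP enzyme, CYLD included, 2 a UCH enzyme and 5 an OTU enzyme. Predicted gene models made up nearly the whole set, since 37 rows had a locus number as name and a product worded "-like". By gene number, 18 of them matched a symbol in a RefSeq gene table and 19 did not, and UCHL5 was named in the table itself. The 38 rows named only 29 enzymes, and 17 rows belonged to 8 enzymes with more than 1 row, so rows are not independent. Rows without a symbol are called by the enzyme in their product, and chromosomes are those of the deposited table's build, Sscrofa10.2. The wording of the rule left out well-known members of the same family, such as USP7, USP8 and UCHL1, whose products are phrased differently.

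Sequencing gave 23796843 counts for brain and 31724498 for liver. Defining markers followed the labels. Each of 8 brain markers, among them STMN2 and GFAP, was higher in brain by 4-fold or more, and each of 7 hepatocyte markers, among them ALB, was higher in liver by 4-fold or more. Summed, the brain markers reached 6446 CPM in brain against 42.5 CPM in liver. The hepatocyte markers summed to 316.01 CPM in brain against 437751 CPM in liver. In bulk tissue, fewer cells of a type and less RNA per cell cannot be told apart. Levels are given as TMM-scaled counts per 1000000 (CPM). The log2 ratio sets brain over liver CPM after adding a pseudocount of 1, which understates rows with few counts, while folds with intervals carry no pseudocount. No difference could be tested or checked in replicates, because each tissue had a single library, and intervals (95%) cover counting error only. Scaling matters, because plain library size adds 1.11 to a log2 ratio of a well-counted gene. The median of all names was 0.02 with TMM, 0.00 with median-of-ratios scaling, 0.47 without the 50 highest genes and 0.98 with plain library size.

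With TMM scaling, most of the deubiquitinating enzyme rows were within 2-fold between the brain and liver libraries, and a USP13-like row stood farthest on the brain side. Of the 38 rows, 30 reached 1 CPM in at least 1 library, and 5 of these did so in 1 library only, 4 in brain and 1 in liver. By log2 ratio, a USP13-like row was the 1 row higher in brain by 4-fold or more, and 0 rows were higher in liver by that much. This USP13-like row passed the filter through brain only, at 4.72 CPM in brain against 0.370 CPM and 8 counts in liver. Over all names that reached 1 CPM, brain was higher by 4-fold or more for 14.6% and liver for 11.3%. With plain library size, 3 rows passed 4-fold on the brain side and 0 on the liver side, against 24.2% and 6.02% of all names. At 2-fold, 2 rows were higher in brain and 1 in liver, against 27.6% and 24.4% of all names. By this log2 ratio with its pseudocount, the remaining 27 rows, 90% of those that reached 1 CPM, lay within 2-fold. The same held for 48.0% of all names. Without the pseudocount fewer rows did. OTUB2 (3.35), USP2 (2.10) and the USP48-like row (2.06) then also passed 2-fold in brain, and USP50 lay at the limit. The USP40-like row (3.24) and the USP38 row LOC100624429 (2.53) also passed it in liver. The share of all names without the pseudocount was not computed. With plain library size, 31 rows reached 1 CPM, of which 14 were higher in brain by 2-fold or more, 0 were higher in liver by that much and 17 lay within 2-fold. Over all names, that scaling put 49.3% at 2-fold or more on the brain side and 12.0% on the liver side.

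The log2 ratios of the 30 rows ran from -1.20 to 2.06, with a median of 0.06. Their middle portion, from the 25th to the 75th percentile, spanned -0.42 to 0.58, against -0.97 to 1.14 for all names. With TMM alone, 17 rows were above 0 and 13 below. Under the 4 scalings tried, 17 rows stayed above 0, 3 stayed below 0, and 10 lay at or below -0.07 with TMM but above 0 with plain library size. Against TMM, plain library size shifts a ratio by 1.11, leaving out the highest genes by 0.46 and median-of-ratios by -0.01. Rows slightly below 0 therefore change sign by construction, and 17 against 3 is no measure of a lean to brain. The matching shares of all names were not counted. Together the 38 rows held 20220 brain counts and 11363 liver counts. These sums were 0.0850% of brain counts (Wilson 95% interval 0.0838 to 0.0861) and 0.0358% of liver counts (0.0352 to 0.0365). With TMM scaling, the sum was 1.10-fold higher in brain (1.07 to 1.13).

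**Figure D1:**
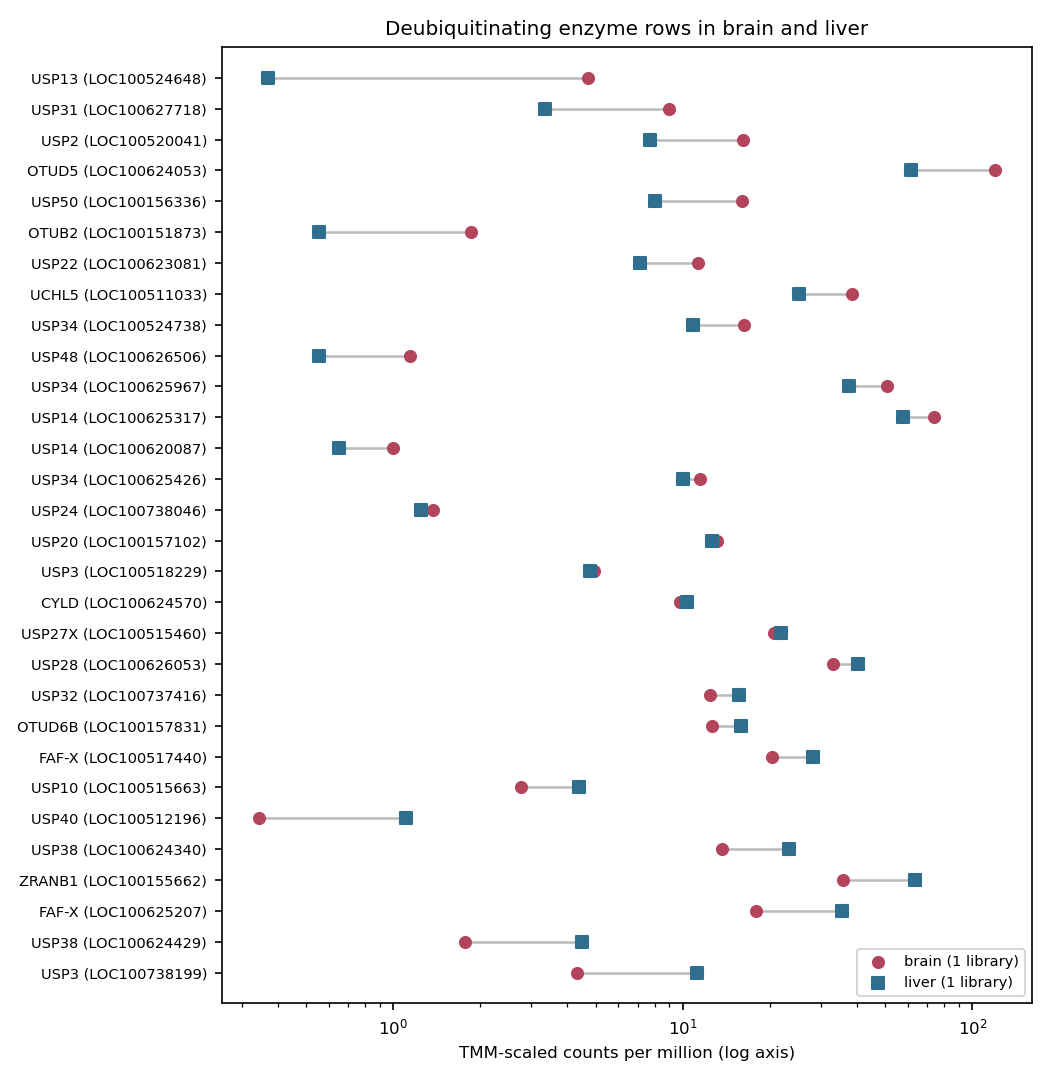
TMM-scaled CPM, on a log axis, of the 30 deubiquitinating enzyme rows at 1 CPM or more, with brain as circles and liver as squares (1 library each) and rows ordered by their ratio. The widest gap is that of the USP13-like row, at 4.72 CPM in brain and 0.370 CPM in liver; levels of different rows are not comparable, since they are not corrected for length.

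**Figure D2:**
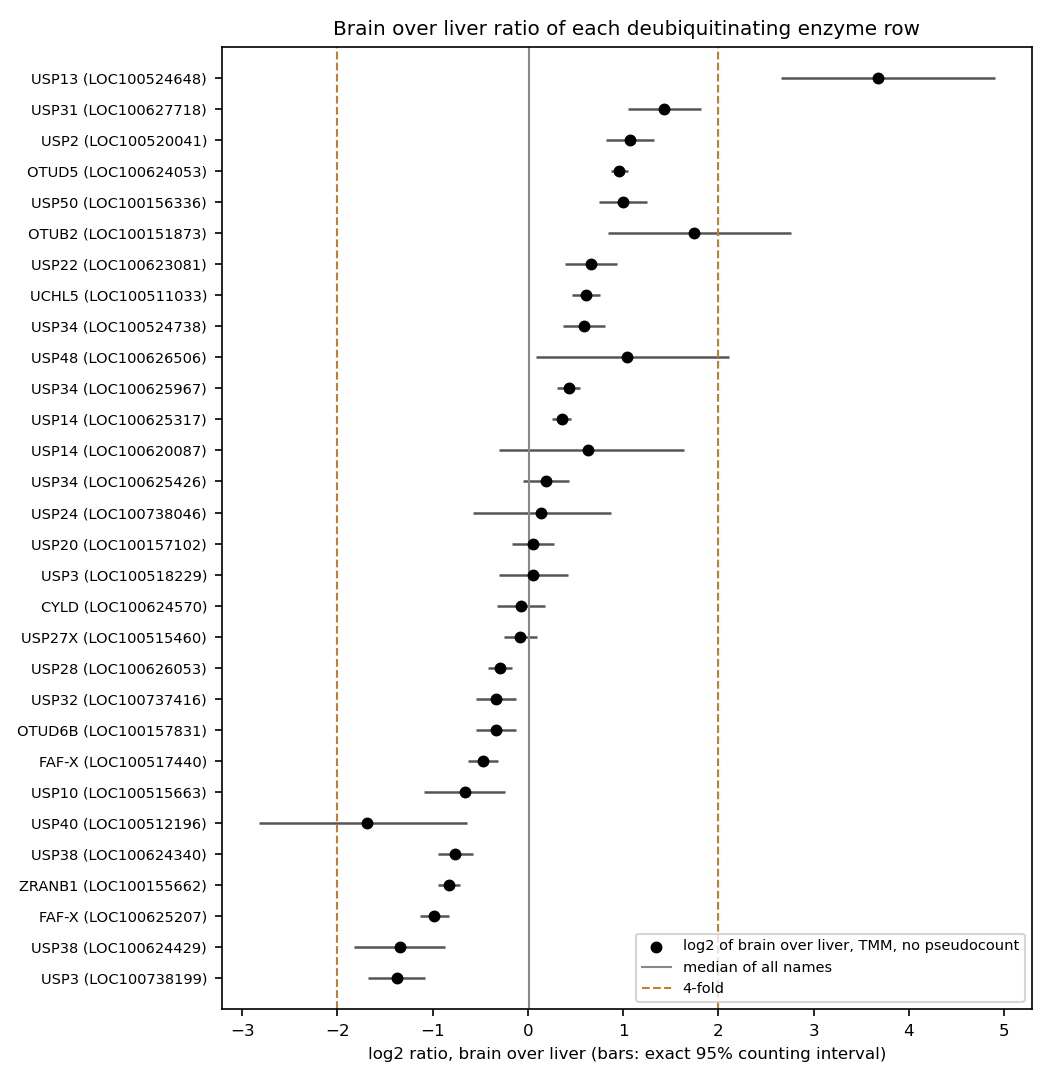
Log2 ratio of brain over liver for the same 30 rows, without a pseudocount, with bars for the exact 95% counting interval and dashed lines at 4-fold. The interval of the USP13-like row lies wholly above 4-fold, and wide intervals mark rows with few counts, such as OTUB2 with 65 brain and 12 liver counts.

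USP14 and UCHL5 act at the proteasome. USP14 (LOC100625317, unplaced), which trims chains from proteins docked at the proteasome, had 2577 counts in brain and 1245 in liver, equal to 73.7 and 57.6 CPM. That is 1.28-fold higher in brain (1.19 to 1.37). A second USP14-like row, LOC100620087 on chromosome 6, had 35 brain and 14 liver counts and a fold of 1.54 whose interval holds equality (0.810 to 3.11). The UCHL5-like row LOC100511033 stood for UCHL5, which binds both the proteasome and a chromatin remodeling complex. It had 1341 counts (38.4 CPM) in brain and 543 (25.1 CPM) in liver, 1.53-fold higher in brain (1.38 to 1.69). The row named UCHL5 in the table, on the same chromosome 10, had only 2 counts in brain and 0 in liver.

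USP13 is the paralogue of USP5, an enzyme that takes apart free ubiquitin chains. The USP13-like row LOC100524648, on chromosome 13, had 165 brain counts and 8 liver counts, or 4.72 and 0.370 CPM. It was 12.7-fold higher in brain (6.32 to 30.01), with a log2 ratio of 2.06 that ran up to 2.74 with other scalings. The neighbouring row named USP13, outside the rule, had 750 counts in brain and 42 in liver, an 11.0-fold difference (8.08 to 15.4). Both rows of this enzyme therefore lay on the brain side with overlapping intervals. USP5, also outside the rule, was at 83.3 CPM in brain and 60.9 CPM in liver, with a log2 ratio of 0.45.

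By log2 ratio with the pseudocount, the next rows below the 4-fold limit were USP31-like, USP2 and OTUD5, while without it OTUB2, with few counts, lay nearest. The row of USP31 (LOC100627718, chromosome 3), a little-studied enzyme, had 313 brain and 72 liver counts, and at 8.95 CPM in brain against 3.33 CPM in liver it was 2.69-fold higher in brain (2.07 to 3.52). USP2 (LOC100520041, chromosome 9), known from human tumour cells for stabilizing the p53 regulator MDM2, had 563 counts in brain and 166 in liver. At 16.1 CPM in brain and 7.69 CPM in liver, its fold was 2.10 (1.76 to 2.51). With plain library size, the log2 ratios of the USP31-like row and OTUD5 passed the limit, at 2.11 and 2.04, and USP2 was at 1.98.

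Rows of enzymes that take ubiquitin off histones ran from -1.20 to 0.59 on the log2 scale where they reached 1 CPM. The USP22-like row LOC100623081, for the enzyme of the SAGA transcription complex, lay on an unplaced scaffold and had 394 brain and 154 liver counts, 1.58-fold higher in brain (1.31 to 1.92). USP27X (LOC100515460), an X-linked paralogue of USP22, had 721 counts (20.6 CPM) in brain and 471 (21.8 CPM) in liver. Its fold of 0.946 had an interval that holds equality (0.841 to 1.06), and with plain library size its log2 ratio was 0.98. USP51 (LOC100519179), another X-linked relative, stayed under 1 CPM, with 27 counts in brain and 1 in liver. The counts allow a fold anywhere between 2.75 and 683, around an estimate of 16.7. USP44 (LOC100516911, chromosome 5), known for work at the mitotic checkpoint, also stayed under 1 CPM, with 8 counts in brain and 0 in liver. Set against an assumed floor of 3 liver counts it was 1.65-fold higher in brain, a value that depends on the floor and is no lower limit. These genes are close relatives, and reads shared between them were not tested for.

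USP3, which acts on histone H2A, had adjoining rows on chromosome 1 that differed. LOC100518229 had 173 brain and 103 liver counts, a fold of 1.04 (0.809 to 1.34). LOC100738199 had 151 brain and 242 liver counts and was the lowest of the 30 rows, at a log2 ratio of -1.20. This row was at 4.32 CPM in brain and 11.2 CPM in liver, 2.59-fold higher in liver (2.11 to 3.20), and it stayed below 0 with every scaling tried.

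The rows chosen by the rule for USP20, USP32 and USP10, enzymes of membrane traffic or protein turnover, lay within 2-fold with TMM. USP20 (LOC100157102, chromosome 1), known for returning beta-adrenergic receptors to the cell surface, had 458 counts (13.1 CPM) in brain and 272 (12.6 CPM) in liver, a fold of 1.04 (0.893 to 1.21). USP32, an enzyme of the endosomal pathway, had a short row, LOC100737416, with 434 brain and 338 liver counts and a log2 ratio of -0.31 (0.72 with plain library size). The USP10-like row LOC100515663 had 97 brain and 95 liver counts and a log2 ratio of -0.52 (0.35 with plain library size). The USP10-like row on an unplaced scaffold, with 28 brain and 15 liver counts, stayed under 1 CPM. The row named USP10, outside the rule, had 2501 brain and 1761 liver counts. Its log2 ratio was -0.19 (0.91 with plain library size). USP10 is known to bind the stress granule protein G3BP1.

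FAF-X, the product name for USP9X after the fly gene fat facets, is a large enzyme with roles in traffic, polarity and neural development. Its row on chromosome X, LOC100517440, had 709 counts (20.3 CPM) in brain and 607 (28.1 CPM) in liver, 1.39-fold higher in liver (1.24 to 1.55) with TMM but on the brain side with plain library size, at a log2 ratio of 0.61. A further FAF-X-like row, LOC100625207, lay on the sequence of chromosome Y and had 626 counts (17.9 CPM) in brain and 764 (35.4 CPM) in liver. That row was 1.98-fold higher in liver (1.77 to 2.20) with TMM, and its log2 ratio of -0.94 became 0.12 with plain library size. Whether reads are shared between the X and Y copies was not tested.

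The OTU subfamily and CYLD include regulators of inflammatory signalling, and their rows lay on both sides of 0. OTUD5 (LOC100624053), an X-linked enzyme known for restraining interferon production through TRAF3, had 4191 counts in brain and 1330 in liver, the most brain counts of the 38 rows. It was at 119.9 CPM in brain and 61.6 CPM in liver, a fold of 1.95 (1.83 to 2.07). ZRANB1 (LOC100155662, chromosome 14), which cleaves atypical ubiquitin chains, had the most liver counts, with 1250 in brain and 1371 in liver. At 35.8 CPM in brain and 63.5 CPM in liver, it was 1.78-fold higher in liver (1.64 to 1.92), while its log2 ratio of -0.81 became 0.28 with plain library size. CYLD (LOC100624570, chromosome 6), the tumour suppressor that opposes NF-kappaB, had 343 counts (9.81 CPM) in brain and 223 (10.3 CPM) in liver. Its log2 ratio was -0.07 (0.94 with plain library size), and the interval of its fold holds equality (0.801 to 1.13).

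OTUB2 (LOC100151873, chromosome 7), the less studied relative of OTUB1, was scarce, with 65 counts in brain and 12 in liver. At 1.86 CPM in brain and 0.556 CPM in liver, its fold was 3.35 (1.79 to 6.81), and the pseudocount holds its log2 ratio to 0.88. OTUD6B (LOC100157831, chromosome 4), linked to the translation machinery, had 440 counts (12.6 CPM) in brain and 343 (15.9 CPM) in liver, 1.26-fold higher in liver (1.09 to 1.46) with TMM but at a log2 ratio of 0.72 with plain library size. OTUD6A, its X-linked relative, was barely counted, with 2 counts in brain and 0 in liver. The 4 OTU rows that reached 1 CPM thus ran from -0.81 to 0.95 on the log2 scale, with a median of 0.28.

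USP34, a very large enzyme known from Wnt signalling, was spread over 3 rows on chromosome 3, all on the brain side. LOC100524738 had 569 counts in brain and 234 in liver, LOC100625967 had 1771 and 812, and LOC100625426 had 400 and 217. Their log2 ratios were 0.55, 0.42 and 0.17, the intervals of their folds overlapped, and that of the last holds equality (0.963 to 1.35). USP38, known from human cells for acting on kinases of innate immunity, had adjoining rows on chromosome 8, both on the liver side with TMM. LOC100624340 had 479 brain and 502 liver counts, a log2 ratio of -0.72 that became 0.33 with plain library size. LOC100624429 had 62 and 97 counts, 2.53-fold higher in liver (1.82 to 3.54), and stayed below 0 with the 4 scalings.

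USP28 and USP50 also lay within 2-fold by log2 ratio. The USP28-like row LOC100626053, of an enzyme known for stabilizing MYC, had 1152 counts in brain and 873 in liver, and a log2 ratio of -0.29 (0.79 with plain library size). The row of USP50 (LOC100156336, chromosome 1), an enzyme regarded as catalytically inactive in human, had 560 counts in brain and 173 in liver. At 16.02 CPM in brain and 8.01 CPM in liver, its log2 ratio was 0.92, and its table entry adjoins that of USP8. USP8, outside the rule, was nearly level at 118.4 CPM in brain and 106.4 CPM in liver.

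Some rows rested on few reads. The USP48-like row LOC100626506 had 40 brain and 12 liver counts, and its gene number carries a different name in the reference table, LDLRAD2, so its identity is uncertain. The USP24-like row had 48 brain and 27 liver counts, and the USP40-like row had 12 and 24. The USP40-like row was 3.24-fold higher in liver (1.56 to 7.10). USP26, an X-linked gene known from testis, had 3 counts in brain and 0 in liver. The USP15-like rows had 8 and 3 brain counts, against 3 and 0 liver counts. Rows outside the rule that carry the symbols of these enzymes held more counts. The row named USP24 had 2511 brain and 2018 liver counts (log2 ratio -0.37), and that named USP40 had 292 and 497 (-1.36). For USP15 the named row had 362 and 366 (-0.66), and for USP48 it had 1818 and 961 (0.22). With plain library size, the named rows of USP24 and USP15 were above 0, at 0.72 and 0.37.

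Rows of the same enzyme were set side by side. For 14 enzymes there were at least 2 rows, counting those outside the rule that carry the enzyme's symbol. In 12 enzymes at least 2 rows held 30 counts or more, and in 8 of these all intervals overlapped. The exceptions were USP32, USP3, USP28 and FAF-X, picked out after their values were seen. FAF-X is an exception only because the chromosome Y copy is counted as a row of the same enzyme. Its fold interval (0.455 to 0.563) lay apart, while those of the chromosome X row (0.647 to 0.806) and an unplaced row outside the rule (0.661 to 0.942) overlapped. Overlap says little for USP10, USP14, USP24, USP40 and USP48, because 1 row of each had few counts and a wide interval. The USP10-like row with 28 brain and 15 liver counts, for example, had an interval from -0.75 to 1.22 on the log2 scale. Over the 12 enzymes, the median gap between the highest and lowest log2 ratio was 0.62.

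USP32 had the widest gap, 1.55 on the log2 scale, and with TMM its rows took opposite sides. The row named USP32, outside the rule and spanning 105330 bp, had 411 counts in brain and 95 in liver, 2.67-fold higher in brain (2.13 to 3.38). The short row of 7281 bp had 434 brain and 338 liver counts, a fold of 0.793 (0.687 to 0.917) with TMM, while with plain library size both rows were above 0, at 2.19 and 0.72. Summed, both rows were at 0.26. For USP28 the member row was at -0.29 and the row named USP28 at -0.98, with 534 counts in brain and 672 in liver. With plain library size the member row was at 0.79. Why rows of 1 enzyme differ was not tested.

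**Figure D3:**
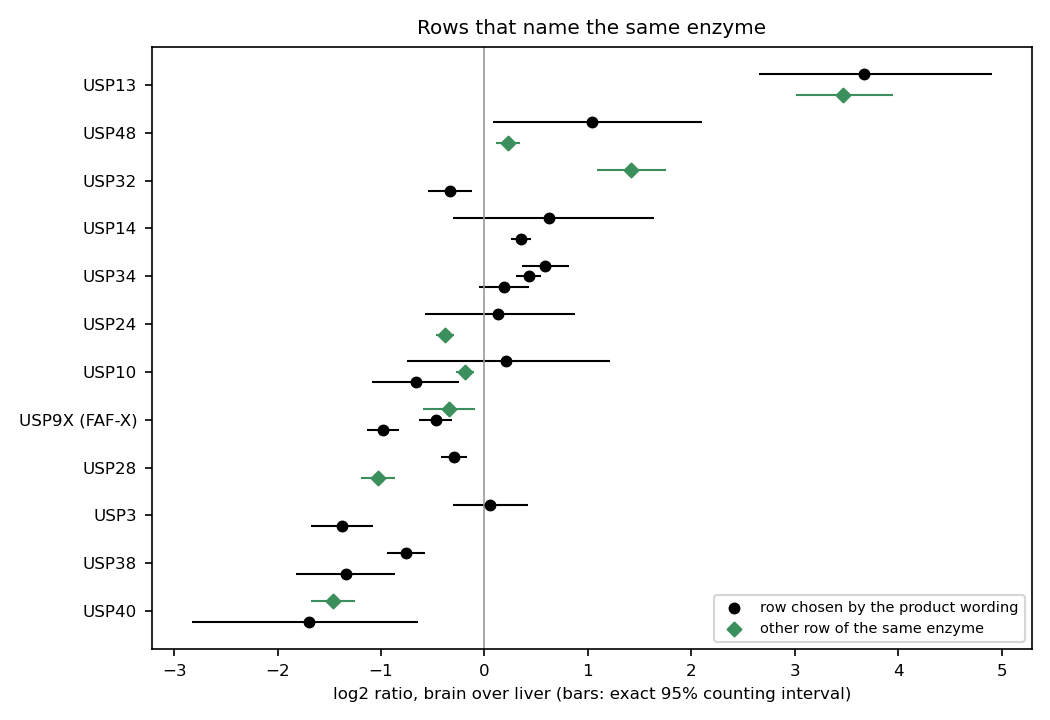
Log2 ratio of brain over liver, without a pseudocount, for 12 enzymes with at least 2 rows of 30 counts or more, with circles for rows chosen by product wording and diamonds for other rows of the enzyme; bars are exact 95% counting intervals. Rows of USP13 overlap far on the brain side, while those of USP32 lie on opposite sides of 0 with TMM, though not with plain library size.

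Named enzymes of the same families outside the rule had a wider range. Of 67 symbols fixed in role lists and paralogue pairs, 42 had a row outside the rule. PAN2, part of an RNA deadenylase (-1.60), and USPL1, which acts on SUMO (0.60), were set aside as they are not ubiquitin proteases. Of the other 40 genes, 37 reached 1 CPM. Their median log2 ratio was 0.22, also with the genes set aside, and 1.25 with plain library size. Of the 37, 7 reached 4-fold on the brain side with TMM and 0 did so on the liver side, beside the 14.6% and 11.3% of all names. With plain library size, 11 genes reached it on the brain side and 0 on the liver side, beside 24.2% and 6.02% of all names. UCHL1, an abundant neuronal hydrolase, had 7267 counts (207.9 CPM) in brain and 12 (0.556 CPM) in liver, 374-fold higher in brain (214 to 724). Its paralogue UCHL3 had 957 counts in brain and 432 in liver, at a log2 ratio of 0.43. OTUD7A, an OTU gene with known links to neurodevelopment, had 1392 brain and 6 liver counts, 143-fold higher in brain (65.7 to 391). Its paralogue OTUD7B was at -0.94, or 0.07 with plain library size. By log2 ratio, the others past 4-fold were USP43 (3.71), USP13 (2.93), USP54 (2.51), USP11 (2.39) and USP35 (2.18).

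Several paralogue pairs that involve the 38 rows were set side by side. Those with USP26 and USP44, which stayed under 1 CPM, are left out. OTUB2 was at 0.88 and OTUB1, a highly expressed inhibitor of ubiquitin transfer, at 1.23. USP20 was at 0.05 and its relative USP33 at 1.39, with 53.5 CPM in brain and 19.8 CPM in liver for USP33. USP2 was at 0.98 and USP21 at 0.50. In the pair of USP38 and USP35, USP38 (LOC100624340) was at -0.72, or 0.33 with plain library size, whereas USP35, with 146 brain and 3 liver counts, was at 2.18. No difference within a pair was tested.

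In the wider pathway, list medians lay between -0.43 and 0.13 with TMM and between 0.63 and 1.21 with plain library size. The calls at 4-fold given here stand beside 14.6% of all names on the brain side and 11.3% on the liver side with TMM. Of 14 genes for other deubiquitinating families at 1 CPM or more, 1 was past 4-fold on the brain side, STAMBPL1, a relative of an endosomal metalloprotease (2.22), and the median was -0.43 (0.63 with plain library size). The highest of this list by mean CPM were EIF3H (0.64), PSMD14 of the proteasome lid (-0.56), MPND (0.43) and COPS5 of the COP9 signalosome (-0.33). With plain library size, PSMD14 and COPS5 were above 0, at 0.53 and 0.75. Of 25 cofactor genes, 2 were past 4-fold on the brain side, and the median was 0.03 (1.12 with plain library size). They were ASXL3 (3.29) and ASXL2 (2.91), partners of the nuclear deubiquitinase BAP1, which itself was at 0.55. VCP, PSMD7, ASXL2 and G3BP1 had the highest mean CPM of these cofactors, and VCP was at -0.43 (0.68 with plain library size), PSMD7 at 0.11 and G3BP1 at -1.65.

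Of 27 genes for ubiquitin-conjugating E2 enzymes, 1 was past 4-fold on the brain side, and the median was 0.13 (1.21 with plain library size). This was UBE2QL1, with 5553 counts (158.9 CPM) in brain and 6 (0.278 CPM) in liver, a log2 ratio of 6.97. The most abundant E2 genes by mean CPM were UBE2G1 (-0.59, or 0.51 with plain library size), UBE2Q1 (0.45), UBE2V1 (0.46) and UBE2N (0.60). The activating enzymes UBA1, UBA6 and UBA7 were at 0.98, -0.09 and -1.57, and with plain library size UBA6 was above 0. None of these 3 genes reached 4-fold with TMM, and UBA1 did with plain library size (2.08). Of the 69 genes of these pathway lists that reached 1 CPM, 4 were past 4-fold on the brain side and 0 on the liver side, beside 14.6% and 11.3% of all names. With plain library size, 9 were past it on the brain side and 0 on the liver side, beside 24.2% and 6.02%.

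**Figure D4:**
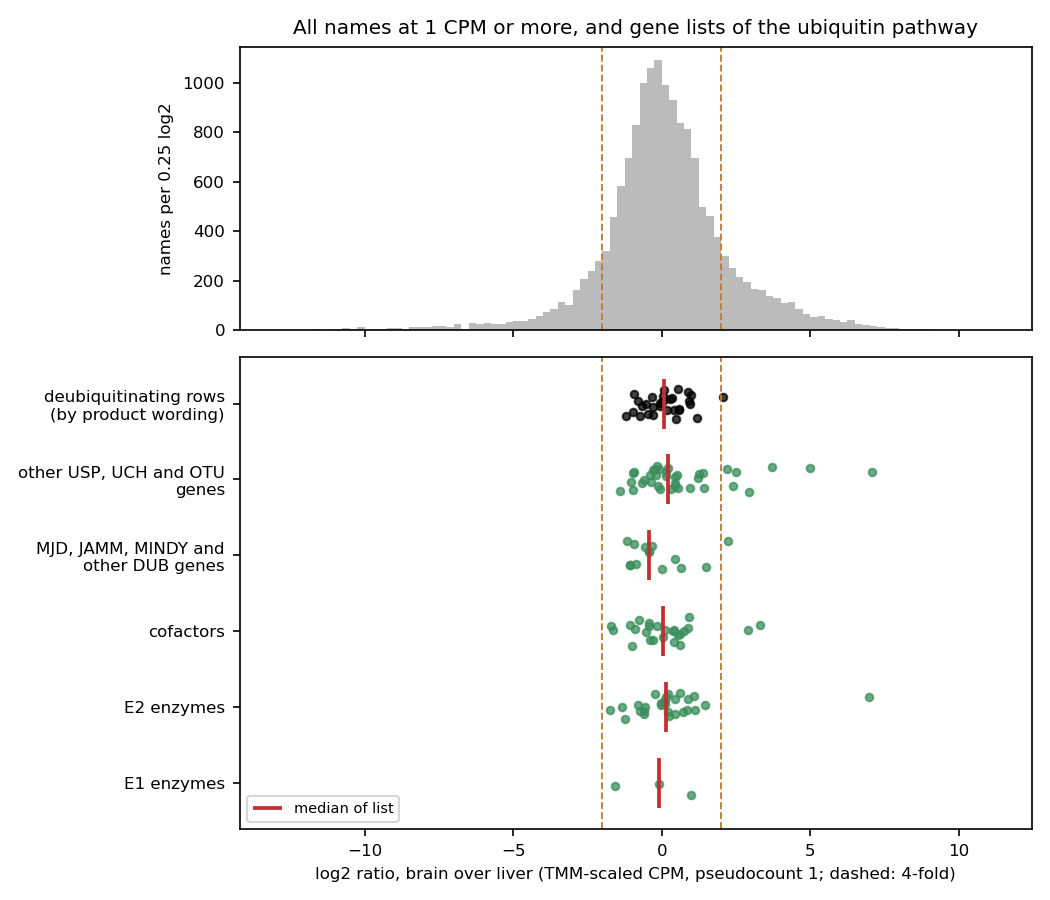
Upper panel, number of names per 0.25 log2 units of the brain over liver ratio, for all names at 1 CPM or more; lower panel, the same ratio for each deubiquitinating enzyme row chosen by product wording and for the gene lists of the pathway, with list medians as red bars and dashed lines at 4-fold. With the TMM scaling plotted, list medians lie between -0.43 and 0.22, and the points beyond 4-fold all lie on the brain side.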

How the data were processed

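RNA of brain and liver tissue was sequenced by the submitters, with 1 library per tissue. The deposited values are raw counts per gene row, read as counts because they are whole numbers with different totals. Alignment used TopHat and the build Sscrofa10.2 (susScr3), per the submitters' processing notes. How reads were counted, and whether by strand, is not given in the sources used here, so reads of overlapping or near-identical genes may be shared. The table's length column, in bp and deposited by the authors, was read as genomic span and normalized nothing. Rows of 1 name were summed, which left 21653 names.

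Library sizes were multiplied by TMM factors of 1.47 (brain) and 0.681 (liver) from edgeR 4.0.16 under R 4.3.3, whose tests were not used. With these sizes, 1 CPM (scaled count per 1000000) equals 35.0 brain counts or 21.6 liver counts. Symbols came from the table or, by gene number, from a RefSeq table of Sscrofa11.1, used for names and for matching sequence accessions to chromosomes. Folds have exact conditional binomial 95% intervals and shares have Wilson intervals; both cover counting error only. Against 0 counts, a floor of 3 counts per library was used. The steps were tested on simulated counts.

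The enzymes, the gene lists and the tests were chosen with earlier results of these data known. Values in full were planned for enzymes at 4-fold or more, the 10 highest of each library, and the UCH and OTU subfamilies. They were also planned for fixed paralogue pairs and the 3 rows on each side of the 4-fold limit. Some of these, among them the USP28-like row, the USP34 rows and several pairs, are given with fewer values or left out. From each pathway list, members at 4-fold or more and the 4 with the highest mean were chosen, many with a log2 ratio only. Other rows are given more briefly, and some genes of the pathway are not reported here.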

Additional observations from a re-analysis of the deposited data

How the results depend on the processing

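With 1 library per tissue, no replicate could be left out, and no paired analysis was possible because each tissue had 1 library. The number of deubiquitinating enzyme rows at 4-fold or more in brain, 1 in the report, was 3 with plain library size, 0 with a pseudocount of 5 and 0 with a filter at 5 CPM. It was 2 with calls at 2-fold and 0 with calls at 8-fold. In liver, the number was 1 with calls at 2-fold and 0 in every other setting run. The median log2 ratio was 0.96 with plain library size and 0.48 with scaling that left out the 50 highest genes of either library. Over all names, plain library size gave 3861 in brain and 960 in liver, and a pseudocount of 5 gave 1238 and 1123. Calls at 2-fold gave 4332 and 3833, and calls at 8-fold gave 1342 and 895. With the 50 highest genes left out of the denominator, the rows held 0.113% of brain and 0.0743% of liver counts. Median-of-ratios scaling, a pseudocount of 0.1, no filter and the highest row per name kept both counts and the median within the limits of 1.5 times and 0.1. Sums per enzyme and a minimum of 100 counts, both chosen after seeing the data, did the same. A median over the other USP, UCH and OTU genes with PAN2 and USPL1, also added after seeing the data, stayed at 0.22. The causes of the other changes were not tested. Depth limits the 8 rows under 1 CPM, whose ratios rest on 43 counts or fewer.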
